A study of Homo sapiens with 6 samples.

Results

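The 9 genes described here encode amino acid transporters of the SLC1 family (4 genes: SLC1A1, SLC1A3, SLC1A4 and SLC1A5) and the SLC38 family (5 genes: SLC38A1, SLC38A2, SLC38A5, SLC38A7 and SLC38A9). They were taken by name from the 19491 gene rows of the expression tables, and all 9 had a row. The cells were PC-3, an established line from a prostate cancer metastasis. They were grown for 48 h without inhibitor (control), with 1 mM GPNA (L-γ-glutamyl-p-nitroanilide) or with 10 mM BenSer (benzylserine), both used as inhibitors of the glutamine transporter ASCT2, which SLC1A5 encodes. All groups were the same cell line in the same serum-containing medium, and 2 libraries of stranded total RNA were labelled in each group, 6 in all. The doses of the 2 inhibitors differed. The study also proposes effects of BenSer beyond ASCT2, since it was reported to inhibit LAT1, another amino acid transporter, in oocytes. The values of the 2 inhibitors are therefore given side by side, and any difference between them is one between these libraries.

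Amino acid carriers that move sodium ions with their substrate use the sodium gradient kept up by the sodium pump, and can concentrate the amino acid inside the cell. ASCT2 and its relative ASCT1 (SLC1A4) are exchangers of small neutral amino acids, glutamine being a substrate of ASCT2. The other SLC1 members described, EAAT3 (SLC1A1) and EAAT1 (SLC1A3), take up glutamate and aspartate. In the SLC38 family, SNAT1 (SLC38A1) and SNAT2 (SLC38A2) load neutral amino acids, glutamine among them, across the plasma membrane, SNAT5 (SLC38A5) carries glutamine in a proton-coupled way, and the products of SLC38A7 and SLC38A9 sit on the lysosome, where the latter acts in amino acid signalling to mTORC1. When amino acids are short, cells make more of the transcription factor ATF4, which binds a composite C/EBP-ATF element in the promoters of several such carriers.

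Because of that element, the 18 windows that RefSeq's promoter table (build GRCh38.p14) gives for the 9 genes, each running from 250 bases before to 50 bases after a transcription start, were searched on both strands for TGATGNAA (the C/EBP-ATF composite element), TGACGTCA (the cyclic AMP response element) and CACGTG (the E-box). No window of these genes held matches to more than 1 of the patterns. TGATGNAA was present in 4 of the 18 windows, 1 each of SLC1A3, SLC1A4, SLC1A5 and SLC38A1, against 3.62% of all 35116 windows in the table. CACGTG was present in 3 member windows (SLC1A5, SLC38A5 and SLC38A7), against 7.26% of all windows, and TGACGTCA in 0, against 1.85%. All 18 windows were found again by exact match in GRCh37, the build used by the authors, and the coordinates below are in that build. The stretches with TGATGNAA or its reverse complement in capitals are shown, and whether ATF4 acts on any of them was not tested. Each is read 5′ to 3′ on the strand of the gene and holds up to 100 bases before the match and 20 after it.
SLC1A3 (+ strand, chr5:36596440-36596497): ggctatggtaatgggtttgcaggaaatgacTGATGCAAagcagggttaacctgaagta
SLC1A4 (+ strand, chr2:65216426-65216553): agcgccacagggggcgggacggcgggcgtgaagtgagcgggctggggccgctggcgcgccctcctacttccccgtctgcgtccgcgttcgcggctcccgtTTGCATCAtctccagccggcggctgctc
SLC1A5 (− strand, chr19:47288141-47288268): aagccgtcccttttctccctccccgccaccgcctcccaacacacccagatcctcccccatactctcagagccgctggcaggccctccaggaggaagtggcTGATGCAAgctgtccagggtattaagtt
SLC38A1 (− strand, chr12:46660276-46660403): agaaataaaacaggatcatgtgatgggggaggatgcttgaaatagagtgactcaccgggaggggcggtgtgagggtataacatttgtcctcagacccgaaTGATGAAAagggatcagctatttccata

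The match of SLC1A4 began 7 bases upstream of the annotated main start, reached into its first exon and read TGATGCAA on the strand opposite to the gene. The match of SLC1A5 lay 97 bases upstream of an internal start, inside an intron of the main transcript, 3683 bases downstream of the main start. That of SLC1A3 lay 220 bases upstream of the start of an alternative transcript, 10238 bases before the main start. In SLC38A1 the match read TGATGAAA, 4 bases upstream of an internal start in an intron of the main transcript. The letters TGATGCAA were shared by SLC1A3, SLC1A4 and SLC1A5, and 0.866% of all windows held them; this narrower pattern was looked for after the matches had been seen. A match describes letters in the window only. The windows of SLC1A1, SLC38A2, SLC38A5, SLC38A7 and SLC38A9 held no match to TGATGNAA. Bases outside the windows, which end 50 bases after a start, were not searched, so these genes may hold the element elsewhere.

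Library totals ran from 23077986 to 32178154 reads, and 51.6% to 52.7% of these lay in listed genes. Levels are given as CPM, counts per 1000000 reads of the library. The 2 libraries of a group differed barely more than read sampling does (the chi-square divided by its degrees of freedom was 1.06 for the control pair and 1.05 for each treated pair), so they were counted as 1 sample, and no p-value for a treatment is given. The study describes tests on 4 replicates per group, whereas 2 libraries per group are labelled and were used here. Whether these libraries came from separate cultures is not given in the sources used here. Differences are therefore given on the log2(CPM + 1) scale with a 95% exact binomial interval on the merged reads, which covers counting error only, and a gene is called where the difference is at least 1.5-fold. CPM is a share of the library, so that less RNA of a gene and more RNA of other genes cannot be told apart. Of 12 marker genes for the cells, 8 had a row. Epithelial keratins were present in every library (KRT8 248 to 292 CPM, KRT18 91.5 to 109, KRT19 667 to 781), EPCAM was at 91.2 to 100.2 CPM and VIM at 142 to 188. TMPRSS2 was at 16.4 to 24.3 CPM and COL1A1, a fibroblast collagen, at 3.65 to 6.07 CPM; KLK3, PTPRC and PECAM1 were not analysed here.

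In the control cells, the SLC38 pair SLC38A2 and SLC38A1 made up most of the transporter RNA of this group. Levels between genes are compared per length, as RPKM, the CPM divided by the annotated exon length in kilobases. SLC38A2 was at 60.1 RPKM (interval 59.2 to 60.9, 18101 reads), SLC38A1 at 32.9 RPKM and SLC1A5 at 12.4 RPKM, so that SLC38A2 stood 1.83-fold above SLC38A1 and 4.83-fold above SLC1A5. These 3 intervals did not overlap each other. SLC1A4 at 1.76 RPKM, SLC1A1 at 1.62 RPKM and SLC38A7 at 1.53 RPKM followed as neighbours whose intervals overlapped, and SLC38A9 at 1.10 RPKM and SLC1A3 at 0.945 RPKM also overlapped. SLC38A5, at 0.124 RPKM from 23 reads, was the lowest. SLC38A1 and SLC38A2 together gave 82.6% of the summed RPKM of the 9 genes, and the 4 SLC1 genes 14.9%.

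The first 3 places and the last did not depend on the length used, but the middle of the order did. SLC1A3 has 60 annotated transcripts and 21227 exon bases in all, and a main transcript of 3919 bases. Per length of the main transcript it was at 5.12 RPKM and in place 4, whereas over all exons it was in place 8. SLC38A9 likewise was in place 7 over all exons and in place 5 by its main transcript, at 3.84 RPKM. No order among SLC1A1, SLC1A3, SLC1A4, SLC38A7 and SLC38A9 is therefore drawn.

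**Figure D1:**
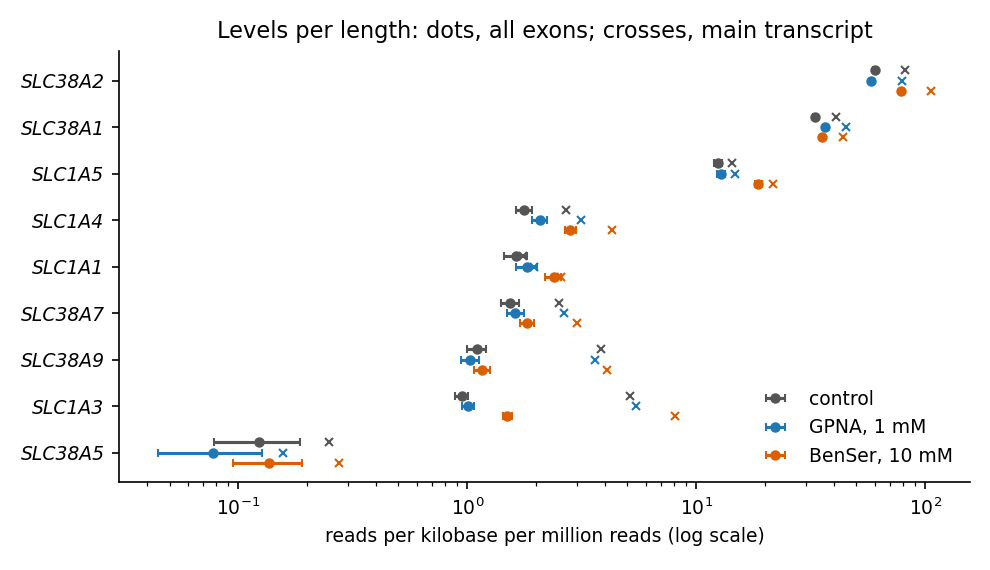
Level of each gene per length in control, GPNA and BenSer cells (x axis, RPKM, log scale). Dots are over all annotated exons with 95% counting intervals and crosses over the main transcript; SLC38A2, SLC38A1 and SLC1A5 lead in all 3 groups, and the gap between dot and cross is widest for SLC1A3.

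With GPNA, none of the 9 genes differed from the control by 1.5-fold, where 0.340% of the 18828 genes tested were that much higher and 0.0637% that much lower. The median difference of the members was 0.07 on the log2(CPM + 1) scale, against −0.03 over all genes tested. In 5 members both GPNA libraries lay above both control libraries, in 2 both lay below, and in 2 the libraries overlapped; over all genes tested, 22.4% lay above and 34.4% below. The 4 SLC1 genes were among the 5 above. The study reports significant up-regulation of SLC1A4, SLC1A5 and SLC38A1 by GPNA in its own account of these data. Their direction here is therefore not independent evidence. The counting intervals of SLC1A4 (0.07 to 0.36) and SLC38A1 (0.12 to 0.18) lay above 0. That of SLC1A5 (−0.04 to 0.13) held 0, so a rise of SLC1A5 with GPNA was not shown here. The study describes more replicates than the libraries used here, so this value is no test of the study's result.

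With BenSer, 2 of the 9 genes, SLC1A3 and SLC1A4, were at least 1.5-fold higher than in the control and 0 were lower, where 1.96% of the 18976 genes tested were that much higher and 1.58% that much lower. SLC1A5 was just short of the threshold. The median difference was 0.38 over the members, 0.60 over the 4 SLC1 genes and 0.11 over the 5 SLC38 genes, against −0.03 over all genes tested. Both BenSer libraries lay above both control libraries in 7 members, in 0 did they lie below, and in SLC38A5 and SLC38A9 the libraries overlapped; over all genes tested, 28.5% lay above and 37.5% below. Under TMM scaling SLC1A5 joined the 2 called genes, and the called genes of the whole table split as 432 higher and 220 lower in place of 371 and 300.

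Set against GPNA, the BenSer libraries were higher in 8 of the 9 genes with no overlap, and lower in SLC38A1; over all 19056 genes tested, 31.7% lay above and 33.6% below. None reached 1.5-fold, where 1.05% of all genes were that much higher and 0.813% that much lower. The median difference was 0.35 over the members and −0.01 over all genes tested. The comparisons with GPNA and with BenSer share the control libraries, and the values of each are given below.

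**Figure D2:**
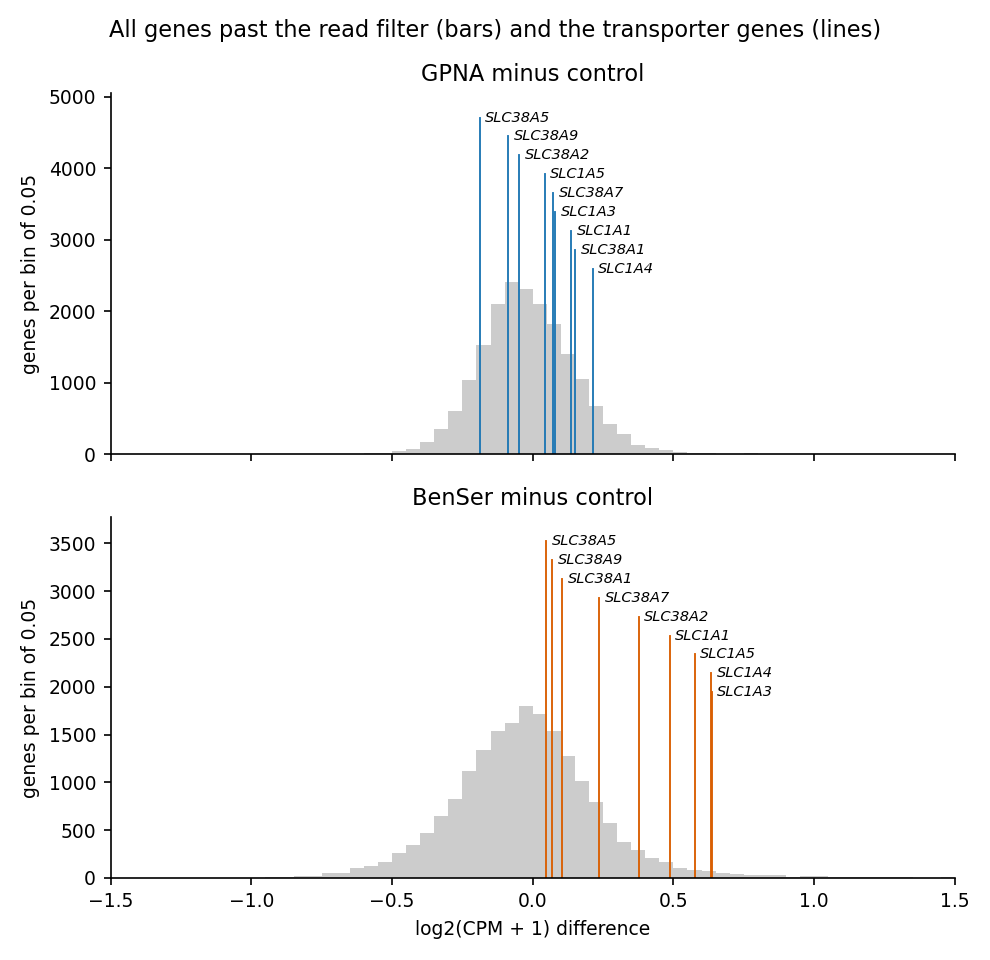
Number of genes past the read filter in each bin of the log2(CPM + 1) difference (grey bars, y axis) with each transporter gene as a line, for GPNA minus control and BenSer minus control. The members lie within the bulk of genes with GPNA, whereas with BenSer all 9 lie right of 0 and the 4 SLC1 genes lie in the upper tail; 3 genes with GPNA and 16 with BenSer fall outside the axis.

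SLC1A5, the gene of ASCT2, against which both inhibitors were used, lies on chromosome 19 (47278140-47291851, − strand, 8 exons in the main transcript). It was at 41.5 and 41.4 CPM in the control libraries, at 42.1 and 43.3 CPM with GPNA and at 62.2 and 62.3 CPM with BenSer. The GPNA libraries were just above the control libraries and the BenSer libraries well above both, with no overlap. The log2 difference from the control was 0.04 (−0.04 to 0.13) with GPNA and 0.58 (0.50 to 0.65) with BenSer, a CPM 50.2% higher that falls just under the log2 threshold of 0.585 once the pseudocount of 1 is added. Between the inhibitors it was 0.53 (0.46 to 0.61). Of the genes tested, 33.7% had a larger difference with GPNA and 2.02% with BenSer. The annotated exons of SLC1A5 share 780 bases, 23.4% of its exon length, with an antisense long noncoding RNA that has no row. Since strand use in counting is not given in the sources used here, reads of the 2 cannot be told apart in that part.

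SLC1A4, the gene of ASCT1, an exchanger of alanine, serine, cysteine and threonine, lies on chromosome 2 (65215611-65250999, + strand, 8 exons). Its libraries were at 12.4 and 12.1 CPM in the control, at 15.3 and 13.4 CPM with GPNA and at 20.2 and 18.8 CPM with BenSer. The 3 groups did not overlap. The difference from the control was 0.21 (0.07 to 0.36) with GPNA and 0.63 (0.50 to 0.77) with BenSer, or 17.2% and 59.6% more CPM, and 0.42 (0.29 to 0.54) between the inhibitors. Without the first GPNA library the difference with GPNA was 0.12, and without the second it was 0.30. Its call with BenSer rests on the first BenSer library: without it the difference was 0.583, just under the threshold. The ratio of SLC1A5 to SLC1A4 per length was 7.05 in control cells, 6.19 with GPNA and 6.63 with BenSer.

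SLC1A3, the gene of the glutamate transporter EAAT1, lies on chromosome 5 (36596690-36688436, + strand, 10 exons in the main transcript). It was at 20.1 CPM in both control libraries, at 20.9 and 21.7 CPM with GPNA and at 31.2 and 32.3 CPM with BenSer. The BenSer libraries stood apart from the other 4. The difference from the control was 0.08 (−0.04 to 0.20) with GPNA and 0.64 (0.53 to 0.74) with BenSer, close to that of SLC1A4, and 1.57% of the genes tested had a larger one. Between the inhibitors the difference was 0.56 (0.45 to 0.66). SLC1A3 shares 150 and 147 exon bases with 2 antisense noncoding RNAs.

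SLC1A1 encodes EAAT3, a glutamate and cysteine transporter, and lies on chromosome 9 (4490468-4587469, + strand, 12 exons). It was at 6.46 CPM in both control libraries, at 6.94 and 7.46 CPM with GPNA and at 10.6 and 8.33 CPM with BenSer. The groups did not overlap, but the BenSer libraries differed 1.27-fold from each other. The difference from the control was 0.14 (−0.06 to 0.33) with GPNA and 0.49 (0.31 to 0.67) with BenSer. From the first BenSer library alone it was 0.63, past the threshold, and from the second 0.32.

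**Figure D3:**
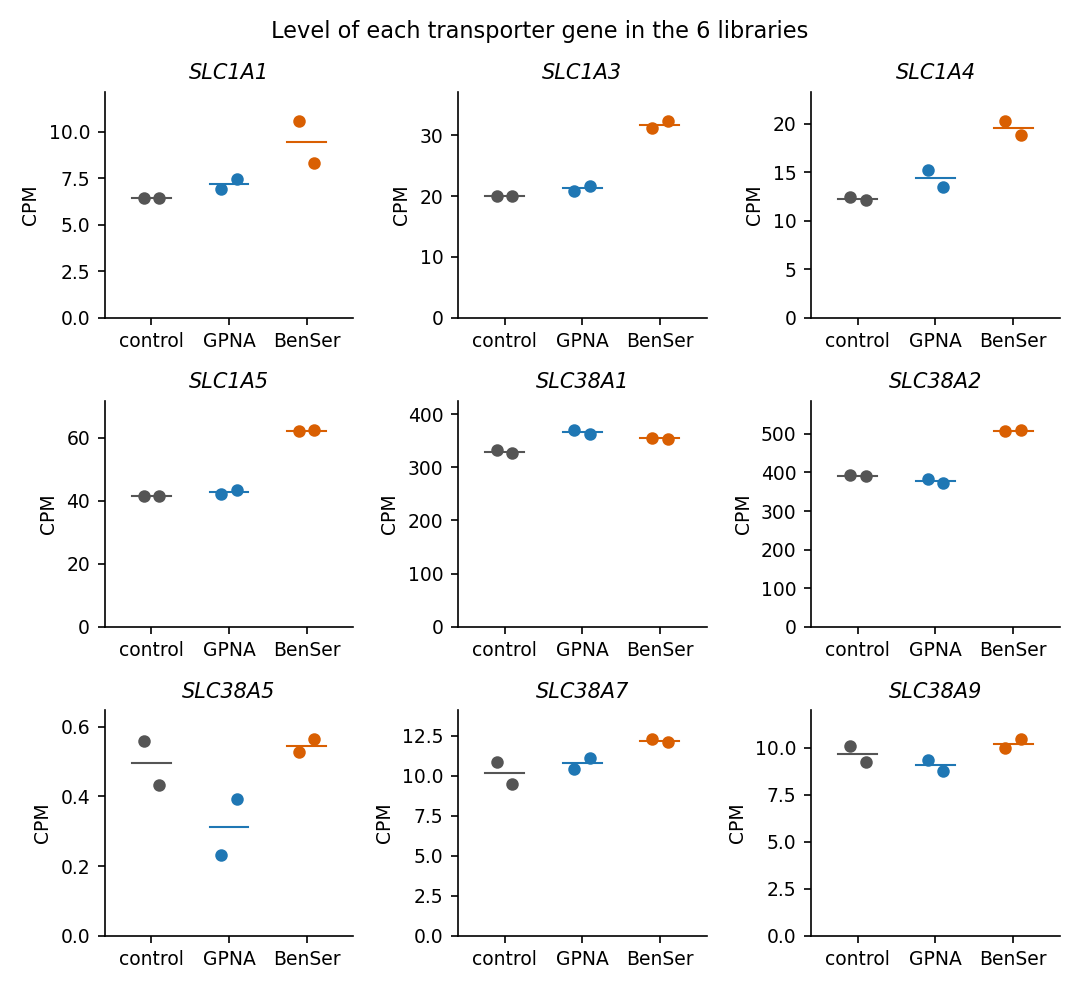
CPM of each of the 9 genes in the 2 control, 2 GPNA and 2 BenSer libraries (dots) with the mean of each group (bar); each y axis starts at 0. In the 4 SLC1 genes, SLC38A2 and SLC38A7 the BenSer libraries stand above all others, while SLC38A1 is highest with GPNA.

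SLC38A2, the gene of SNAT2, an amino acid-regulated carrier of small neutral amino acids, lies on chromosome 12 (46751971-46766556, − strand, 16 exons). It was at 392 and 390 CPM in the control, at 384 and 373 CPM with GPNA and at 507 and 509 CPM with BenSer. GPNA libraries lay below the control and BenSer libraries above it. The difference from the control was −0.05 (−0.08 to −0.02) with GPNA and 0.38 (0.35 to 0.40) with BenSer, a change in CPM of −3.25% and 29.9%. The difference with GPNA depended on the scaling, and was −0.01 under TMM and under DESeq2 size factors and −0.02 when scaled to the listed genes. In CPM this gene had the largest gain of the 9 with BenSer, although its log2 difference was below those of the SLC1 genes.

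SLC38A1, the gene of SNAT1, a glutamine carrier, lies close to it on chromosome 12 (46576846-46663800, − strand, 17 exons). It was at 332 and 326 CPM in the control, at 369 and 362 CPM with GPNA and at 355 and 354 CPM with BenSer. Both treatments lay above the control, GPNA the further, and the 3 groups did not overlap. The difference from the control was 0.15 (0.12 to 0.18) with GPNA and 0.11 (0.08 to 0.14) with BenSer. SLC38A1 was the one member that was lower with BenSer than with GPNA, by a difference of −0.05 (−0.07 to −0.02). The ratio of SLC38A2 to SLC38A1 per length was 1.83 in control cells, 1.59 with GPNA and 2.21 with BenSer.

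With BenSer the lysosomal pair, like the other SLC38 members, had smaller differences from the control than the 4 SLC1 genes. SLC38A7, on chromosome 16 (58699013-58718674, − strand, 12 exons), exports glutamine and asparagine from lysosomes. It was at 10.9 and 9.49 CPM in the control, at 10.4 and 11.1 CPM with GPNA and at 12.3 and 12.1 CPM with BenSer. Its GPNA libraries overlapped the control, with a difference of 0.07 (−0.09 to 0.24) that was −0.01 without the second control library, and its BenSer libraries lay above it, with a difference of 0.24 (0.08 to 0.39). SLC38A9, on chromosome 5 (54921673-55069022, − strand, 16 exons), is an arginine sensor of the mTORC1 pathway. It was at 10.1 and 9.27 CPM in the control, at 9.38 and 8.76 CPM with GPNA and at 9.98 and 10.5 CPM with BenSer. Both treatments overlapped the control, with differences of −0.09 (−0.26 to 0.09) and 0.07 (−0.09 to 0.23).

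SLC38A5, the gene of SNAT5, lies on chromosome X (48316920-48328648, − strand, 17 exons) and was near the limit of detection. The control libraries held 13 and 10 of its reads (0.56 and 0.433 CPM), those with GPNA 6 and 10 (0.233 and 0.393 CPM) and those with BenSer 17 and 18 (0.528 and 0.564 CPM). The GPNA libraries lay below the control and the BenSer libraries overlapped it. The differences of −0.19 (−0.45 to 0.09) and 0.05 (−0.23 to 0.31) both had intervals that held 0, and no difference was detectable at this depth.

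**Figure D4:**
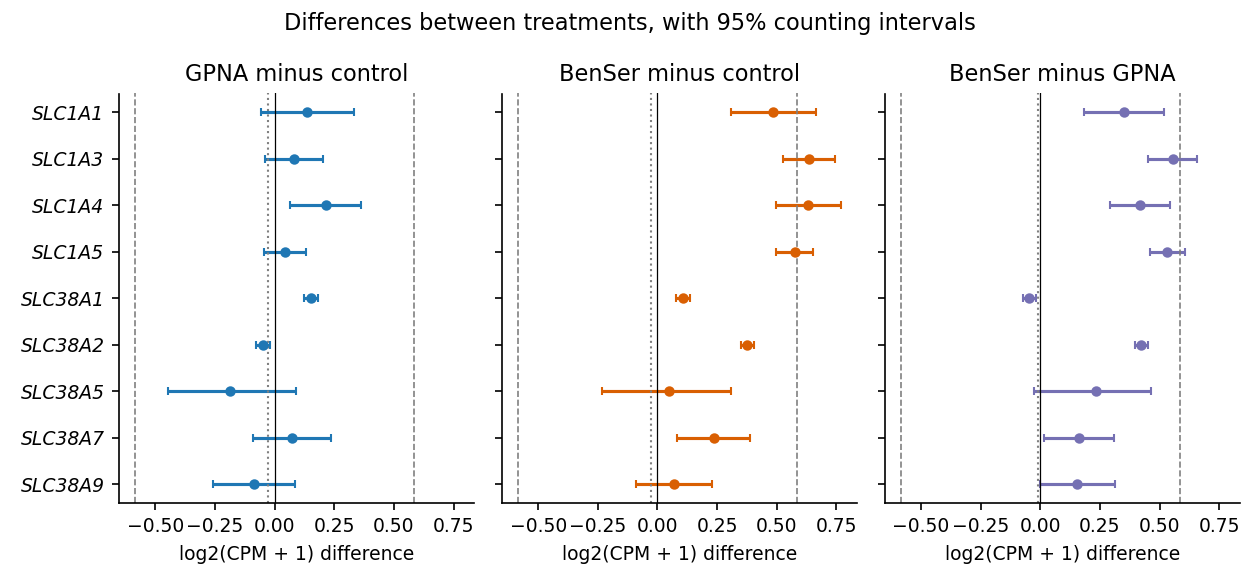
Difference in log2(CPM + 1) of each gene (x axis) for GPNA minus control, BenSer minus control and BenSer minus GPNA, with 95% counting intervals. The solid line is 0, the dotted line the median of all genes and the dashed lines 1.5-fold; with BenSer only SLC1A3 and SLC1A4 pass the dashed line, and the intervals of SLC38A1 and SLC38A2 are the narrowest.

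The make-up of the group shifted slightly towards the SLC1 genes with BenSer. Their share of the summed RPKM was 14.9% in control cells, 15.4% with GPNA and 17.9% with BenSer, and that of SLC38A1 plus SLC38A2 was 82.6%, 82.3% and 79.9%. The summed RPKM of all 9 was 112, 115 and 142. ASCT1 and ASCT2 genes summed to 14.2, 14.9 and 21.5 RPKM, and the EAAT genes to 2.57, 2.81 and 3.87 RPKM. These sums are over all exons. That of the EAAT genes depends on the length used, since SLC1A3 in the control was at 0.945 RPKM over all exons and 5.12 RPKM by its main transcript.

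Of the other genes of both families, 5 had a row, and none was 1.5-fold higher or lower in any comparison. SLC38A6, an orphan family member, was at 10.3 and 10.4 CPM in the control, at 12.2 and 12.3 CPM with GPNA and at 9.91 and 9.20 CPM with BenSer, with differences from the control of 0.22 and −0.10. SLC38A10 was at 36.2 and 35.6 CPM in the control, at 29.5 and 33.2 CPM with GPNA and at 36.2 and 39.4 CPM with BenSer, with differences of −0.19 and 0.07. SLC1A6, SLC38A3 and SLC38A4 stayed at or below 0.746 CPM in all libraries. SLC1A2, SLC1A7, SLC38A8 and SLC38A11 were not analysed here.

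Among the SLC6 amino acid carriers, another sodium-coupled family, 3 of 10 had a row. SLC6A9, the glycine transporter GLYT1, was at 8.35 and 7.41 CPM in control libraries, at 7.91 and 7.90 CPM with GPNA and at 15.5 and 15.2 CPM with BenSer, and was called with BenSer at a difference of 0.88 (0.72 to 1.04). This difference was larger than that of any of the 9 members. SLC6A6, the taurine transporter, had differences of −0.23 with GPNA and 0.06 with BenSer. SLC6A14, a carrier of neutral and basic amino acids, was at 0.689 and 0.433 CPM in control libraries, at 0.31 and 0.0786 CPM with GPNA and at 0.404 and 0.407 CPM with BenSer. Its GPNA libraries lay below the control, with 10 merged reads against 26, and its difference of −0.39 (−0.60 to −0.11) was not past 1.5-fold on the log2(CPM + 1) scale, which understates changes of genes this low.

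The sodium pump, which maintains the gradient these carriers use, showed small differences, and 0 of its 6 genes with a row passed 1.5-fold. The GPNA libraries lay below the control in 5 of them and above it in FXYD3, a regulatory subunit, at 0.20 (0.04 to 0.36). Over all 18828 genes tested with GPNA, 34.4% lay below and 22.4% above. The subunit gene ATP1B1 differed by −0.10 with GPNA and 0.21 with BenSer, ATP1B3 by −0.30 and 0.00, and FXYD5 by −0.08 and 0.04. FXYD3 differed by 0.50 (0.35 to 0.64) with BenSer.

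ATF4, which drives several carrier genes when amino acids are short, was at 112 CPM in both control libraries, at 141 and 139 CPM with GPNA and at 166 and 164 CPM with BenSer. Its differences were 0.31 (0.26 to 0.37) and 0.55 (0.51 to 0.60), and the groups did not overlap. SGK1, a kinase known to act on sodium-coupled carriers, was lower in both treated groups, with a difference of −0.35 in each. NEDD4L, a ubiquitin ligase that lowers carriers at the membrane, was at 78.4 and 76.2 CPM in the control, at 61.1 and 61.5 CPM with GPNA and at 61.9 and 59.7 CPM with BenSer, differences of −0.33 and −0.34. NEDD4 differed by 0.13 and 0.05, RNF5, a ligase of ASCT2 and SNAT2, by −0.14 and −0.08, and ARL6IP5, an inhibitor of EAAT3, by 0.04 and 0.23. None of these 7 regulators, SGK3 included, passed 1.5-fold. Whether any of them takes part in the differences of the transporter genes was not tested.

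**Figure D5:**
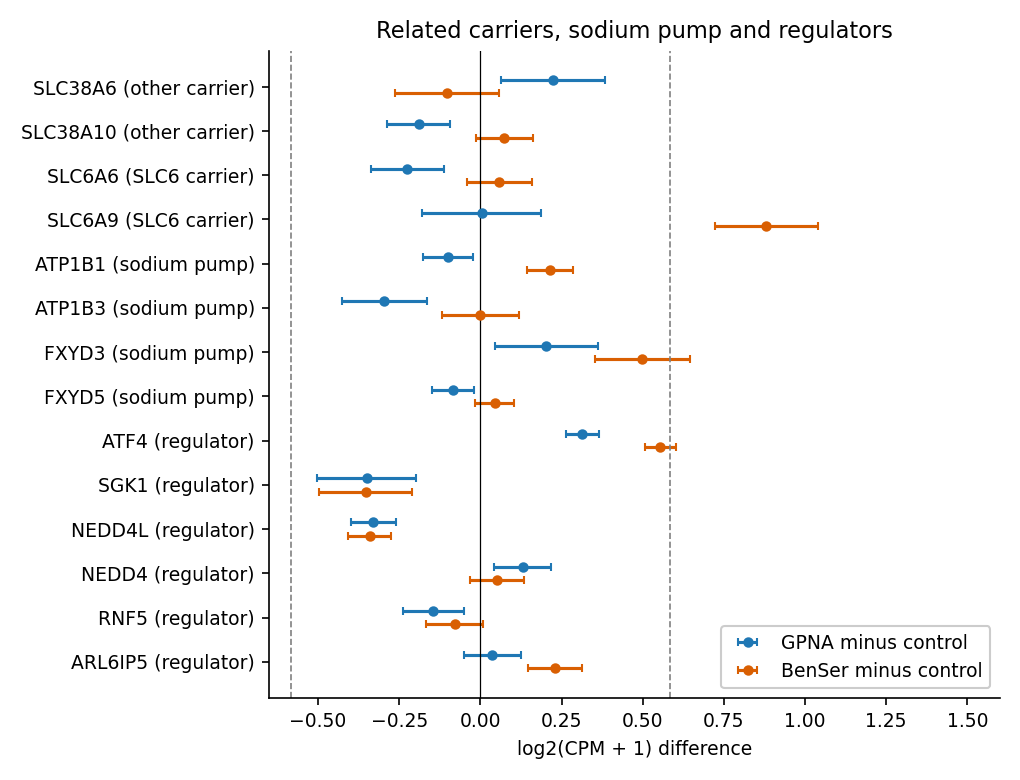
Difference in log2(CPM + 1) from the control (x axis) for the related carriers, sodium pump subunits and regulators reported here that were at 10 CPM or more in any group or past 1.5-fold, with GPNA (blue) and BenSer (orange) and 95% counting intervals; dashed lines mark 1.5-fold. SLC6A9 with BenSer, at 0.88, is the one gene past the line. Most sodium pump genes shown lie left of 0 with GPNA, where the median of all genes tested was −0.03.

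The genes whose pattern over the 3 groups was most like that of SLC1A5 were SELENBP1, ARHGEF37, ITGB8, ST6GAL1 and CAMK2N1, by the distance between the pairs of log2 differences from the control, among the 7945 genes at 10 CPM or more in the control. SELENBP1, a selenium-binding protein gene, lay at a distance of 0.03 with differences of 0.03 and 0.55. ST6GAL1, a sialyltransferase gene, had differences of 0.08 and 0.59. Within a distance of 0.1 lay 47 genes, so this pattern is not particular to SLC1A5.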

How the data were processed

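RNA of PC-3 cells was measured in 6 labelled libraries, 2 per group. Per the labels and the methods of the study, trimmed read pairs were aligned to the hg19 (GRCh37.p13) genome by TopHat2 and Bowtie2, and the authors counted and normalized the reads of each gene; HTSeq 0.6.2p2 is listed among their tools. The deposited values of the 2 tables are CPM, made by the authors over the library total, although the columns are named counts. Every value (100%, within 0.01 read) was a whole number of reads, so reads were recovered. Each table has 4 value columns per group, and 8 of 16 column entries (6 distinct) match no label by name and were not used. Whether these hold further replicates of the study is not given in the sources used here. Log fold change, mean log CPM, p and false discovery rate columns of the authors' own comparisons were not used. Doses come from the study, not the labels.

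Genes averaging 5 or more reads in one of the groups were compared as log2(CPM + 1) of the group mean, a scale that understates changes of low genes. With the columns of a group counted as 1 sample no treatment p is given. Intervals are exact Clopper-Pearson, and neither they nor the limits of a count of 0 (3 reads, 0.0932 to 0.130 CPM) cover more than counting error. edgeR 4.0.16, DESeq2 1.42.0 and limma 3.58.1 (R 4.3.3) with columns as samples were alternatives, and compare libraries, not treatments. In simulated data, 200 genes were changed 2-fold among 18439 (GPNA against control) and 18728 (BenSer against control). The 1.5-fold rule found 199 in each and called 0 unchanged genes. The changed genes were at 5 CPM or more in the control, and the simulated reads varied by sampling only. This result therefore does not bear on smaller changes, lower genes or variation between cultures. The members and lists were chosen with earlier results of these data known. Named were all members, list genes at 10 CPM in any group or past 1.5-fold, and the 5 genes nearest to SLC1A5; others that are named (SLC1A6, SLC38A3, SLC38A4, SLC6A14, COL1A1 and SGK3) were chosen after their values were seen. Python 3.11.15 was used. Exon lengths come from GENCODE for GRCh37. The study does not name the gene annotation its reads were counted on, so these exons may differ from those counted. Protein sequences were not used here, and some listed genes are not reported here.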

Additional observations from a re-analysis of the deposited data

How the results depend on the processing

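Over the 8 settings for scaling, pseudocount and left-out libraries, 205 of the 216 member differences stayed within their own counting interval. The called differences, those of SLC1A3 and SLC1A4 with BenSer, did not change sign. SLC38A7 with GPNA (−0.01) and SLC38A5 with BenSer (−0.01) changed sign without the second control library, both uncalled. Leaving out a library cannot show variation between cultures, since the libraries of a group differed barely more than read sampling does. Members called with BenSer ranged from 1 (without the first BenSer library) to 3 (without the second). At a lower threshold of 0.32 on the log2 scale, 0, 5 and 5 members were called with GPNA, with BenSer and between the inhibitors, and at 2-fold 0, 0 and 0; a pseudocount of 0.1 called 0, 3 and 1 (SLC38A5 between the inhibitors). Over all genes the 3 counts at 1.5-fold were 76, 671 and 356. They became 1054, 3357 and 2657 at the threshold of 0.32, 9, 92 and 30 at 2-fold, 1531, 2602 and 2173 with a pseudocount of 0.1, and 227, 970 and 641 when scaled to the listed genes, which raises all values over the pseudocount. With columns as samples at an adjusted p under 0.05, edgeR called 2853, 6803 and 6436 genes (2, 7 and 5 members), DESeq2 996, 3955 and 3519 (1, 6 and 4) and limma 2, 4493 and 3651 (0, 5 and 4); for the 0 of limma, 4404 genes had an unadjusted p under 0.05. These tools compare libraries. With the replicate block, edgeR called 2212, 6189 and 6326 genes (2, 7 and 5 members). The deviations of same-numbered libraries correlated at 0.01 to 0.02. Since the libraries of a group differed barely more than read sampling does, this cannot show whether same-numbered libraries were paired. The share of SLC38A2 in the summed RPKM of the control was 53.4%, 54.9% with the longest transcript, 53.4% with the main transcript (an alternative chosen after seeing the data), and 53.3% to 53.6% when a library was left out. SLC38A5, at 6 to 18 reads a library, is limited by depth.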
